A study of Mus musculus with 9 samples.

Results

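The glycosyltransferases described here build mucin-type O-glycans, branch and extend N-glycans and glycolipids, and cap glycan chains with fucose or sialic acid. They were chosen by gene name, as the genes whose single symbol in the platform's annotation begins with Galnt and a digit or Galntl, Gcnt, Mgat, B3gnt, B3gal, B4gal, Fut and a digit, St3gal, St6gal or St8sia, with the polysialyltransferases St8sia2 and St8sia4 left out. The rule gave 66 of the 12393 genes with a probe set of their own. A gene with several probe sets was represented by the one with the highest mean, and the 66 members had 109 probe sets in all, with several for 31 members.

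The tissue was mid-foregut of mouse embryos with a wild-type genotype. It spans the gut between the pharyngeal arches and the liver, where the lung buds arise. The stages were 16-20 somites (embryonic day 8.5), 21-25 somites (embryonic day 9.0) and 26-30 somites (embryonic day 9.5), with 3 replicate arrays each and no treatment or mutant allele in any group. Each pool held 5 to 10 dissected foreguts, whole tissue with its epithelium, mesoderm, vessels and blood, and 100 ng of its RNA was amplified in 2 rounds before hybridisation. The comparisons ask which transcripts differ over the interval in which lung buds are induced. In such bulk samples fewer cells of a type and less RNA per cell cannot be told apart.

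Most proteins that enter the secretory pathway leave it carrying sugar chains. Mucin-type O-glycans begin in the Golgi when a GALNT enzyme places N-acetylgalactosamine on serine or threonine, and N-glycans begin in the endoplasmic reticulum as a preformed block that MGAT enzymes later branch with N-acetylglucosamine. Galactosyltransferases and N-acetylglucosaminyltransferases lengthen the arms, and fucosyltransferases and sialyltransferases cap them, which decides what lectins and selectins can bind. In airways mucin-type O-glycans are best known from the mucins of mucus.

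Values are signals from the authors' deposited intensity table, on a linear scale set to a common trimmed mean on each array. Differences are on the log2(signal + 26.1) scale, which understates the difference of dim genes, and were fitted with limma on all 9 arrays, with p-values adjusted by Benjamini-Hochberg over the 8675 genes whose mean log2 value reached the 30th percentile, equal to a signal of 75.1. Of the 66 members, 36 passed that filter, with mean signals between 84.5 and 5115, and the other 30 had means between 4.13 and 81.4. The filter used the mean over all 9 arrays and no stage label. Signals of different probe sets have no common scale, so levels are compared within a gene only.

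The 3 arrays of 21-25 somites replicate 1 and 26-30 somites replicates 1 and 2 had a narrow range and are called narrow-range arrays here, with highest signals between 27479.8 and 32583.5 against 43791.6 to 61749.1 on the other 6. Leaving them out keeps 1 array at 26-30 somites (replicate 3) and 2 at 21-25 somites, so a value without them is that lone array against the 3 at 16-20 somites, assumed to vary as the other arrays do, and is no check of replication. The array of 21-25 somites replicate 2 had the highest 3' to 5' signal ratio of actin, 45.3. The ratio of Gapdh was highest, at 40.9, on 26-30 somites replicate 3, the lone array of its stage left without the narrow-range arrays. That array also had the highest summed signal of primitive erythroid markers, 60200.8, against 18804.5 to 41516.8 on the others. Correlations of log2 signals lay between 0.9 and 0.981 within stages and between 0.892 and 0.972 between stages. Cardiac and hepatic marker genes peaked on 16-20 somites replicate 2, with summed signals of 19127.8 and 39953.6. Markers of epithelium (14 of 14 tested) and of mesenchyme (9 of 11 tested, Foxf1 and Osr1 below the filter) passed the filter as counted here.

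Over the whole interval, 26-30 against 16-20 somites, 0 of the 36 tested members passed an adjusted p of 0.05, and 0% of all genes tested did so. At an unadjusted p under 0.05, the signals of 3 members (B3gnt2, B3gnt5 and B3galnt1) were higher at 26-30 somites, a share of 8.33% against 6.33% of all genes. At the same level 1 member, Galnt3, was lower, a share of 2.78% against 4.85% of all genes. All 3 arrays at 26-30 somites lay above all 3 at 16-20 somites for 5 members (Gcnt2, Galnt4, Fut8, B3gnt2 and B3gnt5), 13.9% of the members against 11.2% of all genes. The reverse held for Galnt3 alone among the members tested, against 10.2% of all genes. The higher shares were near those of the whole table and the lower ones below them, and neither difference was tested. The smallest adjusted p among the members was 0.26, for Galnt3, and the smallest among all genes was 0.231.

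The median difference of the tested members over the whole interval was 0.08 on the log2 scale, with 20 of 36 positive, beside a median of 0.01 and 50.9% positive for all genes tested. The median size of the difference regardless of sign was 0.25 for members and 0.26 for all genes. By role, 5 of 8 tested O-glycan initiating enzymes, 1 of 3 N-glycan branching enzymes, 4 of 6 enzymes of galactose and poly-N-acetyllactosamine addition and 4 of 9 sialyltransferases had positive differences.

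**Figure D1:**
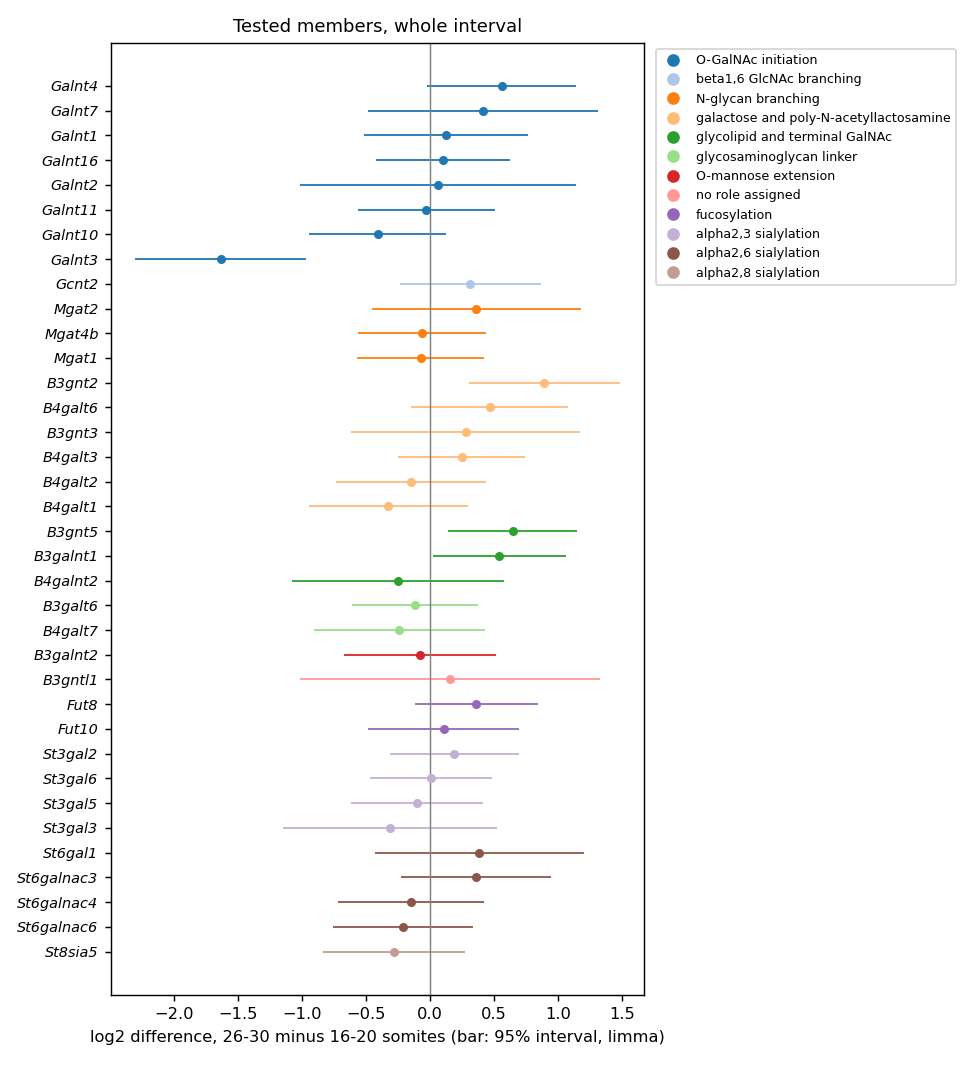
The log2 difference, 26-30 minus 16-20 somites, of each of the 36 tested members on the x axis, in order of role and coloured by it; points are limma estimates and bars their 95% intervals. Galnt3 stands at -1.63, and the intervals of B3gnt2, B3gnt5 and B3galnt1 lie above 0, none of them past an adjusted p of 0.05.

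Galnt3, one of the enzymes that start O-glycans and known for glycosylating the phosphate-regulating hormone FGF23, had the largest whole-interval difference among the members tested. Its signals were 282, 217 and 246 at 16-20 somites, 283, 154 and 110.1 at 21-25 somites, and 83.7, 57.1 and 48.5 at 26-30 somites. All 3 arrays at 26-30 somites lay below all 6 earlier arrays, and the 21-25 somite arrays spread from the earliest level down towards the latest. The mean was 63.1 ± 18.4 at 26-30 somites, against 248 ± 32.2 at 16-20 somites (SD, n = 3 each). The 26-30 somite mean lay below the filter level of 75.1, so Galnt3 passed the filter through its earlier signals. The difference was -1.63 ± 0.31 (SE; 95% interval -2.30 to -0.97), with a limma adjusted p of 0.26. It was -0.47 ± 0.31 at the first step (adjusted p = 0.591) and -1.16 ± 0.31 at the second (adjusted p = 0.981). The first-step value was -0.80 without 21-25 somites replicate 1 and -0.21 without replicate 3. The difference between those steps, -0.68, had an adjusted p of 0.883. By the p of its whole-interval test before adjustment, 0.000167, Galnt3 came first among the members.

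The Galnt3 difference was -1.72 without 16-20 somites replicate 2, the array with high cardiac and hepatic markers. Without the 3 narrow-range arrays it was -1.87, from the lone 26-30 somite array left. With arrays weighted by their fit in limma it was -1.48 with an adjusted p of 0.013, a setting in which 3 of 36 members (8.33%: Galnt3, B3gnt2 and B3gnt5) and 8.36% of all genes passed. In the same weighted fit 1 member, Galnt3, and 3.8% of all genes passed for any difference between the 3 stages. The weights ran from 0.333 for 21-25 somites replicate 2 to 3.38 for 26-30 somites replicate 1. The 2 other Galnt3 probe sets had mean signals of 27.3 and 11.1, below the filter, and differences of -0.40 and -0.16.

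Galnt3 transcript is known from epithelia, so the epithelial markers were set beside it. Their summed signal ranged from 12595.6 to 19179.6 at 16-20 somites, from 10514.1 to 11580.8 at 21-25 somites, and from 11636.4 to 12337.7 at 26-30 somites. The sums at 26-30 somites lay below all those at 16-20 somites, by little at 12337.7 against 12595.6. Signals of different probe sets have no common scale, so bright genes weigh most in such sums. Krt8 and Krt18 read 7627.1 and 5458.8 on 16-20 somites replicate 2. The median difference of the 14 markers was 0.02 over the whole interval (8 of 14 positive), -0.31 at the first step (2 of 14 positive) and 0.35 at the second (12 of 14 positive). Both step values rest on the 21-25 somite arrays, which differed among themselves. The markers' median deviation was 0.219, -0.678 and -0.125 on 21-25 somites replicates 1, 2 and 3. Replicate 2 was the array with the actin ratio of 45.3, and its part in the step medians was not tested. Other lists were lower over the whole interval, with a median of -1.03 for hepatic markers (0 of 7 positive) and of -0.73 for cardiac muscle markers (1 of 11 positive). Both lists peaked on 16-20 somites replicate 2. Hepatic sums at 16-20 somites were 2686.5, 39953.6 and 4970.4, against 1768.9 to 3658.2 at 26-30 somites. Cardiac sums were 3492.7, 19127.8 and 4430.3, against 2461.8 to 7572.9. The part of these cell types in the Galnt3 result was not tested.

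**Figure D2:**
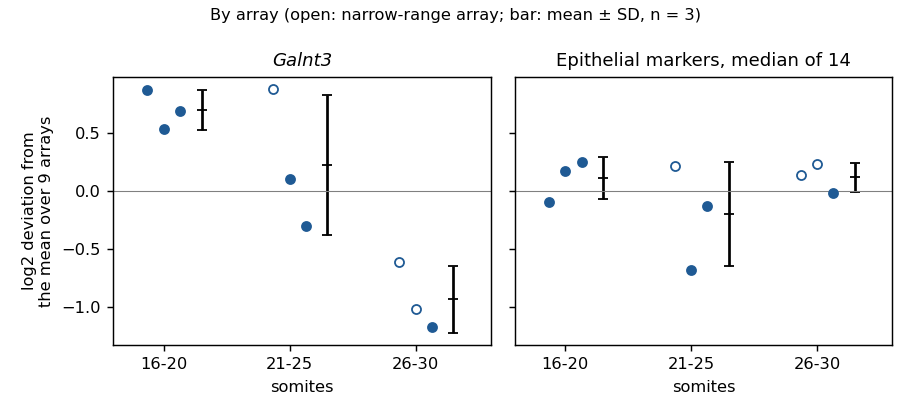
Deviation of log2 signal from the mean over 9 arrays (y axis) by stage in somites, for Galnt3 on the left and for the median of the 14 epithelial markers on the right; points are arrays, open for narrow-range arrays, and bars are means ± SD (n = 3). The 3 Galnt3 points at 26-30 somites lie below all others, and the marker medians of the 3 stages overlap.

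A window for each of Galnt3, B3gnt2 and B3gnt5 is shown because these members had the smallest whole-interval p-values. They are RefSeq sequences of GRCm38.p6, from 250 bases before to 50 after the start used in the promoter table, written 5′ to 3′ along the gene's strand, at chr2:66124744-66125043 (minus strand), chr11:22859686-22859985 (minus strand) and chr16:19759984-19760283 (plus strand). Capitals mark CACCTG or its reverse complement CAGGTG, an E-box form that ZEB and SNAIL factors bind, and GGGCGG or its reverse complement CCGCCC, the GC box. The start used lies 263, 601 and 42 bases inside the outermost annotated end of Galnt3, B3gnt2 and B3gnt5, in that order.
Galnt3: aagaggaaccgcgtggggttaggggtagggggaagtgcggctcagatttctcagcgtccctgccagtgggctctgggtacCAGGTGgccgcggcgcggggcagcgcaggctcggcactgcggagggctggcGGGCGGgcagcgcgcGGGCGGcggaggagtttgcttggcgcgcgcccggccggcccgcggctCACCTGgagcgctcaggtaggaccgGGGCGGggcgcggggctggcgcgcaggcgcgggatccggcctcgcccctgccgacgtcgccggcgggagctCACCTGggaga
B3gnt2: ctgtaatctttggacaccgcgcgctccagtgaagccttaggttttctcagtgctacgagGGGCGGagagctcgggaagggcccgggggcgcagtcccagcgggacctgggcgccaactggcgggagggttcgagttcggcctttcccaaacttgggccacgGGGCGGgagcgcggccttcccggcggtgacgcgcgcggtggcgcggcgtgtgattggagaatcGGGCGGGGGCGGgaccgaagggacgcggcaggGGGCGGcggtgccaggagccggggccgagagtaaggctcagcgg
B3gnt5: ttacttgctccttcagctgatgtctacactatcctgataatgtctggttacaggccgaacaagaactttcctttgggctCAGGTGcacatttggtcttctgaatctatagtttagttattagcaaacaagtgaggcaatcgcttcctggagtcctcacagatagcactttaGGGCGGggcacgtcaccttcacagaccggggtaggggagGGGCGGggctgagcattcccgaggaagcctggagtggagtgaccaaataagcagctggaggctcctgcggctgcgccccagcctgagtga

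Both strands were searched, and no E-box match overlapped a GC box match in these windows. The Galnt3 window held 3 E-box and 3 GC box matches with a GC content of 76.7%. The B3gnt2 window held 0 and 5 with 71.3% GC, and the B3gnt5 window 1 and 2 with 53.3% GC. Of the 32851 windows of this length searched, which left out chromosome 18, 20.2% held the E-box form and 35.7% the GC box. Their median GC content was 52.7%. The CCAAT box (CCAAT or ATTGG) matched 1 time in the B3gnt2 window and the TATA box (TATAAA or TTTATA) in none of the 3, against 37.4% and 13.6% of the windows searched. These matches describe letters in a window only. A promoter entry was found for 46 of the 66 members, with chromosome 18 included in that count.

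Galnt4, which prefers substrates that already carry a GalNAc and acts on the selectin ligand PSGL-1, had signals of 201, 145 and 185 at 16-20 somites, 294, 137 and 222 at 21-25 somites, and 252, 303 and 259.8 at 26-30 somites. The 26-30 somite arrays lay above those at 16-20 somites, and the 21-25 somite arrays covered both ranges. The difference was 0.56 ± 0.27 (95% interval -0.02 to 1.14, adjusted p = 0.455). A second Galnt4 probe set, below the filter with a mean of 67.2, had a difference of -0.72, and the mean of all Galnt4 probe sets gave 0.06.

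Galnt10, an enzyme that also favours glycopeptides, gave 487, 697 and 388 at 16-20 somites, 461, 341 and 382 at 21-25 somites, and 361, 347 and 427 at 26-30 somites. The stages overlapped, and the highest value came from 16-20 somites replicate 2, where cardiac and hepatic markers peaked; their part in the result was not tested. The difference was -0.41 ± 0.25 over the whole interval (adjusted p = 0.533) and -0.19 without that array. A second Galnt10 probe set, below the filter with a mean of 49.5, had a difference of -0.80.

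Galnt1 and Galnt2 are the widely expressed initiating enzymes. Galnt1 averaged 2600.5 ± 1016, 2690.4 ± 409 and 2707 ± 454 at 16-20, 21-25 and 26-30 somites (SD, n = 3 each). Galnt2 averaged 312 ± 65.8, 444 ± 304 and 329 ± 86.5. The wide SD of Galnt2 at 21-25 somites came from values of 702, 108 and 521, the lowest on replicate 2. Galnt7, a glycopeptide-preferring enzyme, was also lowest there, at 316, while St6gal1 had its highest signal there, at 9902. The part of that array's actin ratio of 45.3 in these values was not tested.

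Galnt11, which in frog embryos glycosylates Notch1 and shapes cilia types, gave 421, 401 and 352 at 16-20 somites, 550.4, 337 and 587 at 21-25 somites, and 322, 424 and 408 at 26-30 somites, with overlap at every stage. It was the member with the second smallest p among negative differences at the second step, at -0.31 ± 0.25 (adjusted p = 0.998), which ran from -0.54 without 21-25 somites replicate 2 to -0.16 without replicate 3. Galnt16 averaged 382 ± 40.8, 460.0 ± 88.4 and 417 ± 99. Galnt6 and Galntl5 were below the filter.

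Gcnt enzymes add the branching N-acetylglucosamine of core O-glycans or of poly-N-acetyllactosamine. Gcnt2, which makes the branched I antigen, was the one tested member of 3, with 63.9, 59.3 and 85.8 at 16-20 somites, 109, 104 and 62.8 at 21-25 somites, and 89.4, 95.2 and 91.6 at 26-30 somites. The arrays at 26-30 somites stood above those at 16-20 somites by a small margin, and the difference of 0.31 ± 0.25 had an adjusted p of 0.645. The next brightest Gcnt2 probe set, below the filter with a mean of 53.4, had a difference of -0.16. The dimmer ones had differences from 0.06 to 0.49. Gcnt1, the core branching enzyme, averaged 16.3 ± 13.3, 22.4 ± 22.5 and 30.2 ± 6.1 at 16-20, 21-25 and 26-30 somites, and Gcnt3 also lay below the filter.

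B3gnt2, the main enzyme of poly-N-acetyllactosamine synthesis, gave 92.5, 94.9 and 147 at 16-20 somites, 208, 219 and 157 at 21-25 somites, and 273, 265 and 156.5 at 26-30 somites. Arrays of both later stages lay above all 3 at 16-20 somites, by little for 26-30 somites replicate 3 and 21-25 somites replicate 3. The mean was 231 ± 64.9 at 26-30 somites, against 112 ± 31 at 16-20 somites. The difference was 0.89 ± 0.27 (95% interval 0.30 to 1.48, limma adjusted p = 0.351).

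Both 26-30 somite arrays with high B3gnt2 were narrow-range arrays, and without the 3 narrow-range arrays, with replicate 3 alone at 26-30 somites, the difference was 0.43; their part in the result was not tested. In that fit, whose p-values rest on an arm of 1 array, 1 of 35 members and 3.24% of all genes had an unadjusted p under 0.05. A second B3gnt2 probe set, with a mean of 28.7 and below the filter, had a difference of -0.77, and the mean of both probe sets gave 0.06. The weighted fit gave 0.93 with an adjusted p of 0.0287.

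**Figure D3:**
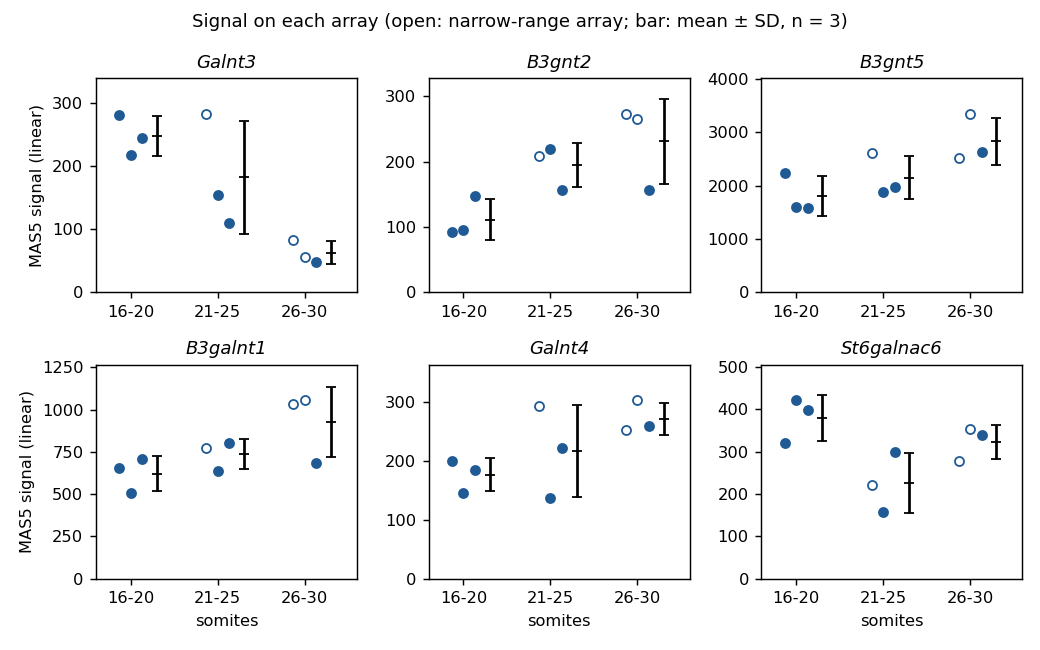
Linear MAS5 signal (y axis, from 0) on each array by stage in somites (x axis) for Galnt3, B3gnt2, B3gnt5, B3galnt1, Galnt4 and St6galnac6; points are arrays, open for the 3 narrow-range arrays, and bars are means ± SD (n = 3). Galnt3 at 26-30 somites lies below both earlier stages, and St6galnac6 is lowest at 21-25 somites.

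Among the galactosyltransferases, B4galt1, the main enzyme for N-glycan galactose and a part of lactose synthase, gave 479, 977 and 613 at 16-20 somites, 782, 483 and 718 at 21-25 somites, and 484, 610.5 and 481 at 26-30 somites. The value of 977 belonged to 16-20 somites replicate 2, and the stages overlapped. The difference was -0.33 ± 0.28 (adjusted p = 0.673); it was -0.05 without that array and -0.55 without 16-20 somites replicate 1.

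B4galt6, a lactosylceramide synthase, gave 637, 577 and 557 at 16-20 somites, 1173, 658 and 643 at 21-25 somites, and 868, 1068 and 599.8 at 26-30 somites. Its 3 highest values were those of the 3 narrow-range arrays. The difference of 0.46 ± 0.28 (adjusted p = 0.538) was 0.02 without them, with the lone value of 599.8 left at 26-30 somites, and their part in the result was not tested. It was 0.28 without 26-30 somites replicate 2. The other 3 B4galt6 probe sets, all above the filter, had differences of 0.25, -0.07 and -0.32, and the mean of all of them with the one used gave 0.08.

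B4galt3, another N-glycan galactosyltransferase, gave 530.3, 787 and 508 at 16-20 somites, 567, 529 and 513 at 21-25 somites, and 709, 829 and 614 at 26-30 somites. Its 26-30 somite arrays stood above all 3 at 21-25 somites, while the 16-20 somite arrays overlapped both. The second-step difference was 0.39 ± 0.23 (adjusted p = 0.998), and 0.20 with the mean of all B4galt3 probe sets. B4galt2 averaged 237 ± 52.8, 180.0 ± 49.1 and 210.2 ± 44 at 16-20, 21-25 and 26-30 somites, and B3gnt3, which extends core O-glycans, averaged 91.3 ± 61.8, 96.4 ± 30.9 and 99 ± 13.

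Glycolipid enzymes included the other members whose 95% interval over the whole interval lay above 0. B3gnt5, which starts the lacto-series glycolipids by forming lactotriaosylceramide, gave 2242, 1604 and 1587 at 16-20 somites, 2603, 1878 and 1973 at 21-25 somites, and 2524, 3338 and 2623 at 26-30 somites. The arrays at 26-30 somites lay above all 3 at 16-20 somites and overlapped those at 21-25 somites. Means were 2828 ± 444 at 26-30 somites and 1811 ± 373 at 16-20 somites, a difference of 0.64 ± 0.23 (95% interval 0.14 to 1.15, adjusted p = 0.368). In the weighted fit it was 0.66 with an adjusted p of 0.0443. Without the narrow-range arrays it was 0.55, again from the lone 26-30 somite array left. The mean of both B3gnt5 probe sets gave 0.38. The second B3gnt5 probe set, with a mean of 35.4 and below the filter, had a difference of 0.11.

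B3galnt1, globoside synthase, gave 652, 508 and 706 at 16-20 somites, 773, 634 and 802 at 21-25 somites, and 1032, 1054 and 686 at 26-30 somites. The pair of highest values were narrow-range arrays, and the remaining 26-30 somite array lay among the earliest ones. The difference of 0.54 ± 0.24 (95% interval 0.02 to 1.06, adjusted p = 0.432) was 0.15 without the 3 narrow-range arrays, with 686 alone left at 26-30 somites; their part in the result was not tested. B4galnt2, which makes the Sda antigen, averaged 206 ± 145, 147 ± 38.8 and 145 ± 10.7 at the 3 stages in order, with a single value of 367 on 16-20 somites replicate 2.

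MGAT enzymes set the branching of N-glycans, and 3 of the 7 members were tested. Mgat1, which opens the pathway to hybrid and complex N-glycans, averaged 557 ± 151, 474 ± 53.5 and 518 ± 14.7 at 16-20, 21-25 and 26-30 somites. Mgat2, the next enzyme in that pathway, averaged 97.2 ± 21.4, 134 ± 73.1 and 141 ± 68.1. Mgat4b averaged 706 ± 148, 585 ± 103 and 669 ± 76.5. The differences of the 3 over the whole interval lay between -0.07 and 0.36, with 0 at an unadjusted p under 0.05. Mgat5, whose branches carry poly-N-acetyllactosamine, averaged 29.6 ± 33.9, 5.8 ± 2.8 and 9.7 ± 7.8 and was below the filter, as were Mgat3, Mgat4c and Mgat4d.

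Some members act in other pathways and entered by name. B3galt6 and B4galt7 build the linker that joins glycosaminoglycans to proteoglycans, and averaged 188 ± 15.1 and 103 ± 21.4 at 26-30 somites, against 207 ± 30.2 and 133 ± 61.4 at 16-20 somites. B3galnt2, which extends the O-mannose glycan of dystroglycan, averaged 492 ± 119 at 26-30 somites and 517 ± 92.7 at 16-20 somites. B3gntl1, for which no role is assigned here, varied widely, from 27 to 229 over the 9 arrays.

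Fucosylation was represented by 2 tested members of 7. Fut8, which adds core fucose to N-glycans and whose loss in mice gives emphysema-like lungs, gave 338, 300.1 and 289 at 16-20 somites, 534, 348 and 427 at 21-25 somites, and 363, 432 and 419 at 26-30 somites. Arrays of both later stages lay above all 3 at 16-20 somites, in part narrowly. The difference was 0.36 ± 0.22 over the whole interval (adjusted p = 0.538) and 0.45 ± 0.22 at the first step (adjusted p = 0.469). Over 21 alternative settings the whole-interval value ran from 0.30 to 0.43. Fut10, a member of the fucosyltransferase family, averaged 131 ± 40.7, 125 ± 25.7 and 140.4 ± 27.9 at the 3 stages in order. Fut1, Fut2, Fut4, Fut7 and Fut9, the enzymes of H, Lewis and selectin-ligand fucose, were all below the filter.

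Sialyltransferases divided into 4 tested St3gal enzymes of 6, 4 of 7 in the St6gal and St6galnac families, and 1 of 3 in the St8sia family. St6gal1, which caps N-glycan galactose with sialic acid, averaged 4238 ± 1709, 5881 ± 3486 and 5228 ± 249.7 at 16-20, 21-25 and 26-30 somites. The array of 21-25 somites replicate 2 read 9902, against 3703 and 4038 in the same stage. St3gal4, which acts on lactosamine, averaged 51 ± 22.7, 52 ± 20.7 and 60.6 ± 19.5, below the filter.

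St6galnac6, which makes disialylated gangliosides and Lewis structures, gave 319.8, 421 and 399 at 16-20 somites, 223, 157 and 299 at 21-25 somites, and 277, 354 and 339 at 26-30 somites. All 3 arrays at 21-25 somites lay below all 3 at 16-20 somites, and those at 26-30 somites overlapped both. The first-step difference was -0.72 ± 0.25 (95% interval -1.26 to -0.17, adjusted p = 0.369), and -0.51 when 21-25 somites replicate 2 was left out. At the second step it was 0.50 ± 0.25 (adjusted p = 0.998), and over the whole interval -0.21 ± 0.25 (adjusted p = 0.763). The second-step value was 0.29 without 21-25 somites replicate 2, and with 1 array left out the whole-interval value ran from -0.33 (16-20 somites replicate 1 left out) to -0.12 (26-30 somites replicate 1 left out).

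St8sia5, a ganglioside sialyltransferase, gave 276, 311 and 292 at 16-20 somites, 196, 243 and 202 at 21-25 somites, and 166, 228 and 345 at 26-30 somites. Arrays at 21-25 somites lay below those at 16-20 somites, and at 26-30 somites the values scattered over both ranges. The whole-interval difference of -0.28 ± 0.26 (adjusted p = 0.69) was -0.06 without 26-30 somites replicate 1 and -0.53 without replicate 3. Without the 3 narrow-range arrays it was 0.22, from replicate 3 alone, the highest of the 9 arrays. At the first step it was -0.42 ± 0.26 (adjusted p = 0.571).

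St3gal3, which sialylates lactosamine, gave 298, 404 and 601 at 16-20 somites, 389, 122 and 390.5 at 21-25 somites, and 399, 294 and 309 at 26-30 somites, with overlap at every stage. The difference was -0.31 ± 0.38 (adjusted p = 0.775); it was -0.06 without 16-20 somites replicate 3, the array with 601, and -0.54 without 16-20 somites replicate 1. St3gal5, GM3 synthase, averaged 499 ± 108, 389 ± 78.4 and 457 ± 34.4 at the 3 stages in order, and St3gal2, which acts on core O-glycans and gangliosides, 246 ± 39.5, 254 ± 65.2 and 282 ± 17.9.

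St3gal6, another lactosamine enzyme, gave 149, 119 and 135 at 16-20 somites, 158, 175 and 169 at 21-25 somites, and 119, 162 and 126 at 26-30 somites. Its arrays at 21-25 somites lay above those at 16-20 somites and overlapped those at 26-30 somites. A second St3gal6 probe set, below the filter with a mean of 71.4, had a first-step difference of -0.10, beside 0.27 for the one used. St6galnac3, which sialylates gangliosides and O-glycans, gave 147, 83 and 148 at 16-20 somites, 235, 173 and 136 at 21-25 somites, and 146, 181 and 168 at 26-30 somites. Its stages overlapped, and the first-step difference was 0.45 ± 0.27 (adjusted p = 0.551). It was 0.23 without 16-20 somites replicate 2, the array with 83, and 0.27 without 21-25 somites replicate 1. St6galnac4 averaged 113 ± 11.9, 99 ± 32.8 and 100.4 ± 22.5 at the 3 stages in order.

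Between 21-25 and 16-20 somites, 0 of 36 members and 0% of all genes passed an adjusted p of 0.05. At an unadjusted p under 0.05, 1 member, B3gnt2, was higher (2.78%, against 5.72% of all genes) and 1, St6galnac6, was lower (2.78%, against 5.28%). All arrays at 21-25 somites lay above those at 16-20 somites for 4 members, B3gnt2, B4galt6, Fut8 and St3gal6, 11.1% against 6.95% of all genes. They lay below for St6galnac6 and St8sia5, 5.56% against 7.29% of all genes. The median difference was 0.00 with 18 of 36 positive, and it was -0.16 without 21-25 somites replicate 1, the array on which the members' median deviation was highest. The median of all genes was 0.002, and -0.038 without that array. B3gnt2 had a first-step difference of 0.69 ± 0.27 (adjusted p = 0.404).

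Between 26-30 and 21-25 somites, 0 of 36 members and 0% of all genes passed the adjusted threshold, and the smallest adjusted p of both was 0.981. At an unadjusted p under 0.05, 0 members were higher, against 2.05% of all genes, and Galnt3 was lower (2.78%, against 2.04%). The stages stood wholly apart for B4galt3 in the upward direction (2.78%, against 4.53%) and for Galnt3 in the downward direction (2.78%, against 4.84%). Positive differences were found in 25 of 36 members, with a median of 0.05, beside 50.9% and a median of 0.01 for all genes. The members' median deviation was 0.229, -0.186 and -0.115 on 21-25 somites replicates 1, 2 and 3. Without each of these arrays in turn the median of all genes at this step was 0.038, -0.022 and -0.004. The part of single arrays in the count of positive members was not tested. B3gnt5 had a difference of 0.39 ± 0.23 and St3gal6 of -0.26 ± 0.22 at this step (adjusted p = 0.998 for both).

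For the difference between the steps, 0 members and 0% of all genes passed after adjustment, and 1 member, St6galnac6, had an unadjusted p under 0.05 (2.78%, against 6.31% of all genes), with a value of 1.22 ± 0.43 and an adjusted p of 0.755. For any difference between the 3 stages 0 members and 0% of all genes passed after adjustment. At an unadjusted p under 0.05 there were 4 members, B3gnt2, B3gnt5, Galnt3 and St6galnac6, 11.1% against 9.69% of all genes.

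**Figure D4:**
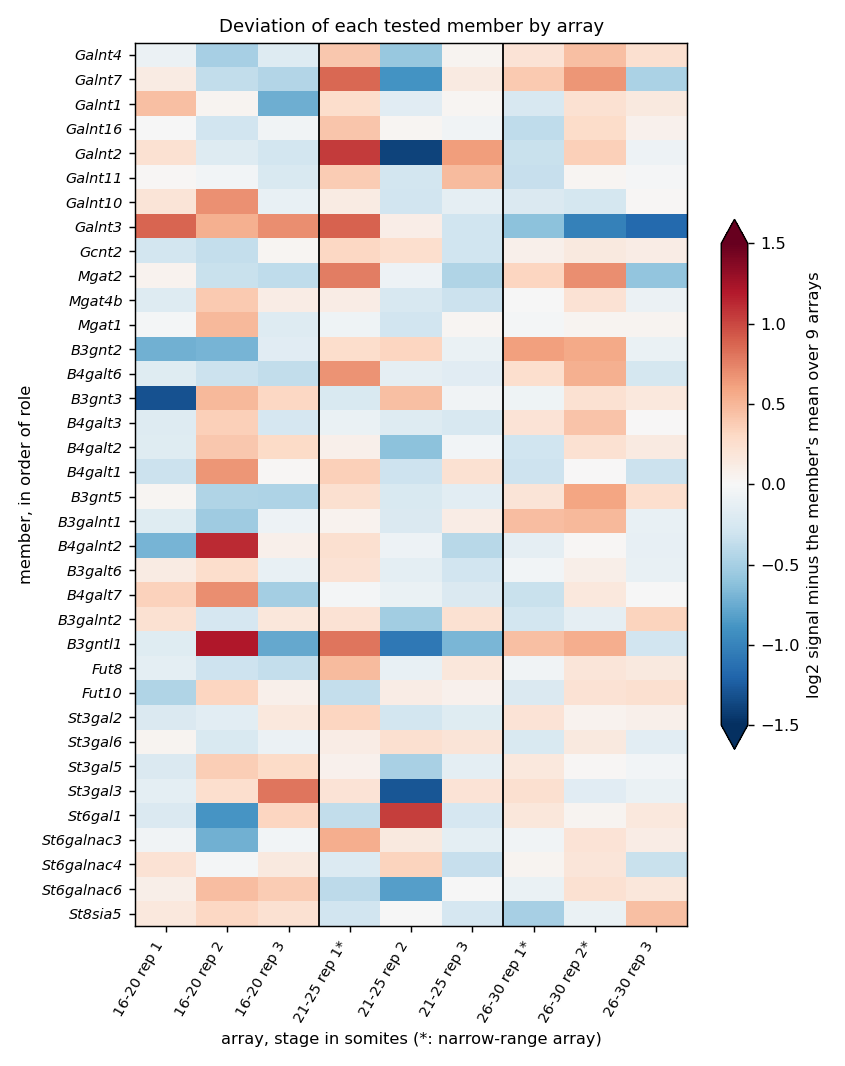
Log2 signal minus the member's mean over 9 arrays (colour) for each of the 36 tested members, in order of role, on each array in order of stage, with an asterisk at the 3 narrow-range arrays. The columns of 21-25 somites replicate 1 and 26-30 somites replicate 2, with median deviations of 0.23 and 0.20, are the reddest, and that of 21-25 somites replicate 2, at -0.19, the bluest. The median log2 signal over all probe sets was 7.42, 7.332 and 7.118 on these arrays in the order named. On the other arrays it lay between 7.124 and 7.355.

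Of the 30 members below the filter, 3 had all arrays at 26-30 somites below all at 16-20 somites (3 of 30), and 8.53% of all genes below the filter did. The differences that follow come from a fit without the filter. B3gnt9 read 4.4, 5.6 and 12.3 at 26-30 somites, against 27.2, 37.8 and 44.5 at 16-20 somites, a difference of -0.90 (adjusted p = 0.357). St6galnac5, which sialylates gangliosides, read 10.2, 9 and 27.3 at 26-30 somites, against 42.3, 50.5 and 51.8 at 16-20 somites, a difference of -0.86 (adjusted p = 0.431). For St6galnac2, which sialylates O-glycans, the difference was -0.60 (adjusted p = 0.591). Low signals of this kind carry wide relative errors: St6galnac2 read 34, 31.6 and 4.4 at 26-30 somites, against 50.5, 42.4 and 44 at 16-20 somites.

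The members below the filter that are not named elsewhere were B3galt1, B3galt2, B3galt4, B3galt5, B3gnt4, B3gnt8, B4galnt1, B4galt4, B4galt5, St3gal1, St6galnac1, St8sia1 and St8sia3. Among them are the ganglioside enzymes B4galnt1 (GM2 and GD2 synthase) and St8sia1 (GD3 synthase).

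Among tested members, 6 had 8 further probe sets above the filter, and 5 of the 8 had the opposite sign to the probe set used over the whole interval. For B3galnt2 the probe sets gave 0.87 and -0.08, the one used being the negative, and for B3galt6 0.74 and -0.12, again with the negative one used. For St6gal1 the other gave -0.01 beside 0.38 for the one used.

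Genes around the members in the pathway were counted in the same fit over the whole interval, and 0 of them passed an adjusted p of 0.05. Counts at an unadjusted p under 0.05 are to be read against 6.33% of all genes higher and 4.85% lower. Of 29 tested genes of sugar nucleotide supply and transport 18 had positive differences, and 0 had an unadjusted p under 0.05. Of 25 genes of the dolichol pathway and oligosaccharyltransferase 11 were positive and 1, Dpm2, a subunit of dolichol-phosphate-mannose synthase, was lower at that level, at 374 ± 77.8 in 26-30 somite pools and 577 ± 35.0 in 16-20 somite pools (difference -0.61 ± 0.26, adjusted p = 0.412). N-glycan trimming enzymes gave 7 of 11 positive, with 0 at that level.

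Of 13 tested enzymes of other O-glycans 7 were positive, and 1, Ogt, which places N-acetylglucosamine on nuclear and cytosolic proteins, was higher at an unadjusted p under 0.05, at 1461 ± 494 at 26-30 somites and 633 ± 33.4 at 16-20 somites (difference 1.13 ± 0.43, adjusted p = 0.378). Galectins, lectins that read galactose-bearing glycans, were positive in 1 of 6, and 1, Lgals1, was lower at that level. Lgals1 averaged 1661 ± 767 at 26-30 somites and 4244 ± 1766 at 16-20 somites (difference -1.36 ± 0.49, adjusted p = 0.366). Of 9 tested mucins and mucin-like carriers 4 were positive, with 1 lower (Podxl) and 1 higher (Cd164) at that level. Podxl, a sialylated mucin-like protein, averaged 1513 ± 61.6 at 26-30 somites and 3074 ± 1126 at 16-20 somites (difference -0.95 ± 0.30, adjusted p = 0.351), and Cd164, another, had a difference of 0.53 ± 0.22 (adjusted p = 0.406). The 3 sialidase genes on the array were below the filter.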

How the data were processed

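MAS5 is the tool that the submitters' processing notes name for the deposited intensity table, with no version or scaling target. The table has 22690 probe sets including 64 controls, and a linear scale on which the 2% trimmed means of the arrays were 500.2 to 500.3. That scaling fixes an array's average but not its range. The platform annotation gave 1 symbol for 20380 probe sets; those with several (691) or none (1555) were left out. RefSeq identifiers changed 0 symbols. Amplification in 2 rounds, per the labels' protocols, favours transcript 3' ends, so probe sets of one gene can differ.

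Values were computed as log2(intensity + 26.1), the 20th percentile of the table, and fitted with limma 3.58.1 (lmFit, eBayes with a trend) in R 4.3.3 on 9 arrays in 3 stage groups, after a filter at the 30th percentile of gene means. The code was tested on simulated data. The number of arrays limits the precision, and p-values measure the spread between pools and their arrays. Replicate numbers did not pair samples. Alternatives were normalization, pseudocount, filter, probe set choice, array weights, a replicate block, the arrays fitted and each array left out; leaving out the 3 narrow-range arrays, which keeps 1 array at 26-30 somites and 2 at 21-25, was added after the data were seen.

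The members, the gene lists of the pathway and of cell type markers, and the tests were chosen with earlier results of these data known. Any member could be named. Values on each array are given for the 6 members of smallest p in each direction over the whole interval, with further ones from each step (3 in each direction). Values by array are also given for Gcnt2, B3gnt9, St6galnac5 and St6galnac2, whose arrays at 26-30 and 16-20 somites lay wholly apart. Stage means are given for common enzymes of each role. From each pathway list up to 2 genes were named.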

Additional observations from a re-analysis of the deposited data

How the results depend on the processing

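Of the counts of members past an adjusted p of 0.05, 101 of their values under the alternatives kept the reported 0. With array weights the count was 3 over the whole interval (Galnt3, B3gnt2 and B3gnt5) and 1 for any difference between the stages (Galnt3). With the replicate number as a block the count was 0 in every comparison; same-numbered arrays of different stages had residual correlations of -0.283 to 0.257, with 3 of 9 over 0.1, so the numbers were not taken as pairs. Leaving out 1 array at a time also gave 0 members in each comparison. Of the values of single members, 489 kept their direction and side of the threshold, 3 passed it with array weights, and 2 changed sign: B3gnt2 at the first step was -0.015 with the mean of all probe sets, because its dimmer probe set had the opposite sign, and St8sia5 over the whole interval was 0.22 without the 3 narrow-range arrays, which leaves 26-30 somites with replicate 3 alone, its highest array. The members' median at the first step was -0.155 without 21-25 somites replicate 1 and also without the 3 narrow-range arrays. The median of all genes was -0.038 and -0.039 in those settings. Galnt3 over the whole interval ranged from -1.90 to -1.08 over 19 alternatives, with adjusted p from 0.013 to 0.999; it was not tested under the filter at the 50th percentile or with the mean of its probe sets, where it did not pass the filter. Signal near background limits what can be said of the 30 members below the filter, and of the Galnt3 level at 26-30 somites.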
